A study of Drosophila melanogaster with 12 samples.

Results

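Of 15473 transcripts measured on the arrays, 69 (0.446%) were at least 4-fold higher in control enteroblasts (EBs) than in control guts and differed by less than 1.41-fold between Hey RNAi and control samples both in guts and in EBs. The limits were set on differences of group means of quantile normalized log2 intensity, at 2 or more for control EB minus control gut and at under 0.5 in size for each Hey RNAi minus control difference. The transcripts were thus selected on all 3 differences, over all 12 arrays. The differences of these 69 transcripts are therefore given as a description with no test. What the choice did not use is the spread between replicate arrays and the width (not the position) of the intervals. No array was held out of the choice of the 69. Held-out values are given below for choices repeated on 2 replicate numbers, which only partly overlap the 69. Limits on means can still favour transcripts whose arrays spread little, so spread and width are not independent of the choice.

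RNA came from adult females of Drosophila melanogaster in 4 groups with 3 arrays each. Control guts (EC-GFP, Myo-GAL4> UAS-GFP) and guts depleted of dHey in enterocytes (EC-dHey RNAi, Myo-Gal4> dHey RNAi) were sampled as whole guts, so their RNA also holds that of all other gut cells. Control EBs (EB-GFP, dHey-Gal4>UAS-GFP) and dHey-depleted EBs (EB-dHey RNAi, dHey-Gal4>UAS-dHey RNAi) were purified cells. According to the study, the driver used for EBs marks mainly EBs and to a small extent intestinal stem cells. The purified populations also held unmarked cells, in shares that varied between the preparations it reports. Flies of every group were reared at 18 °C, moved to 29 °C as adults of 2 to 4 days and kept there for 2 days, and for the EB flies the methods add a stay at 18 °C before the shift. A control EB against a control gut thus differs in cell type, driver, purification and, by those methods, in age. These differences cannot be told apart here. In bulk RNA, fewer cells of a type and less RNA per cell cannot be told apart either.

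In the fly midgut, intestinal stem cells divide to renew themselves and to give rise to EBs, the postmitotic progenitors in which Notch signalling is active. EBs then differentiate into enterocytes (ECs), the large polyploid absorptive cells that make up most of the epithelium. Hey is a basic helix-loop-helix-Orange protein of the Hairy/E(spl) family, a family of mostly repressing factors that includes known targets of Notch. In the study, Hey depletion served to ask what the factor does in ECs and in EBs.

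The arrays identify targets by transcript number. None of the 69 identifiers was paired with a gene symbol in the files or reference tables used here, where 17 of the 15473 identifiers had 1 symbol and 27 had several. No function is therefore given for any of the 69, no progenitor or EC marker could be read, and the depletion of Hey itself was not analysed here. Of 146 listed genes for stem cells, progenitors, ECs and other gut cell types, 1 (LanA, a laminin subunit of the basement membrane) was paired with an identifier, and it was not among the 69. Counts are of transcripts, not genes. Within the 69, 4 pairs had identifiers that differed by 3 or less (FBtr0074998 and FBtr0074999, FBtr0080509 and FBtr0080512, FBtr0082017 and FBtr0082019, FBtr0086171 and FBtr0086173), and whether both of a pair belong to 1 gene is not given in the sources used here.

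EB enrichment was common to 539 transcripts (3.48%), and most of these lay outside the limit of 0.5 in at least one of the tissues, as did most transcripts on the arrays. Of the 539, 247 (45.8%) were within the limit in guts, against 72% of all transcripts, and 162 (30.1%) were within it in EBs, against 47.9% of all. Both limits were met by the 69, which is 12.8% of the 539, while 5649 of all transcripts (36.5%) met both. The largest class of the 539 held 152 transcripts (28.2%) that were within the limit in guts and at least 0.5 lower in Hey RNAi EBs. A further 92 (17.1%) were at least 0.5 higher in Hey RNAi guts and within the limit in EBs, 84 (15.6%) were higher in guts and lower in EBs, and 82 (15.2%) were higher in both. The remaining classes were 33 that were lower in both, 26 that were within the limit in guts and higher in EBs, 1 that was lower in guts and within the limit in EBs, and 0 that were lower in guts and higher in EBs. LanA (FBtr0077014), the one EB-enriched transcript with a single symbol, was 2.80 higher in control EBs than in control guts and had a Hey RNAi difference of -0.32 in guts and -1.31 in EBs, so it lay outside the limit in EBs.

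**Figure D1:**
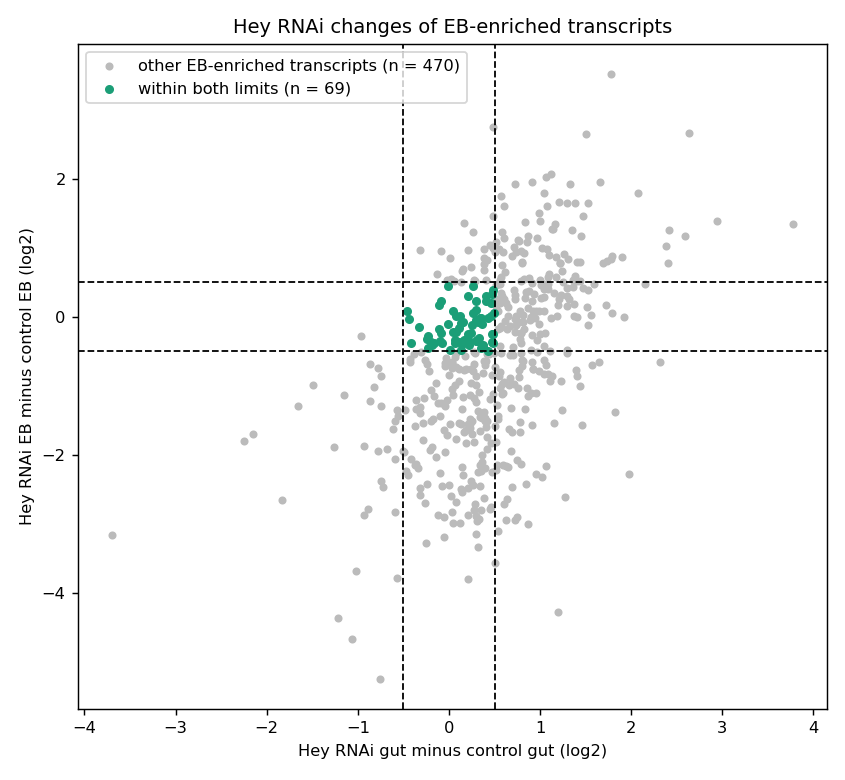
Each point is 1 of the 539 EB-enriched transcripts, with Hey RNAi gut minus control gut (log2) on the x axis and Hey RNAi EB minus control EB (log2) on the y axis, both from means of 3 arrays. Dashed lines mark the limits of 0.5 in either direction; the 69 transcripts within both limits (green) fill the centre by construction, and the other 470 (grey) lie mostly below or to the right of it.

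The 69 were not centred on 0 inside their limits. In guts, 51 of them had a Hey RNAi difference above 0 and 18 below 0, with a median of 0.21, against a median of 0.47 for the 539 EB-enriched transcripts and 0.02 for all transcripts. In EBs, 19 were above 0 and 50 below 0, with a median of -0.22, against -0.50 for the 539 and 0.04 for all. Without the first control EB array the median of the 69 in EBs was -0.12, as it was without the third Hey RNAi EB array. Without the third control EB array it was -0.25. The median in guts was 0.14 without the first Hey RNAi gut array and 0.30 without the third control gut array. With arrays scaled by their medians alone, the EB median was -0.48 for the 69 and -0.27 for all transcripts. The combination of higher in guts and lower in EBs was held by 36 transcripts, lower in both by 14, higher in both by 15, and lower in guts with higher in EBs by 4. The medians of the 69 were thus on the same sides of 0 as those of the 539, while 36 single transcripts were on both of these sides. Their smaller size follows from the limits. Differences of under 0.25 in size were held by 34 of the 69 in guts and 33 in EBs. Control guts and control EBs enter both the enrichment and the Hey RNAi difference of their tissue with opposite sign (EBs) or the same sign (guts), so the differences are not independent measures of a transcript.

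The enrichment of the 69 ran from 2.02 to 3.83, which is 4.05-fold to 14.2-fold, with a median of 2.42 (5.33-fold) and 6 transcripts at 3 or more. The median enrichment was 2.46 over the 539. The median level of the 69 was 8.77 in control guts, 8.88 in Hey RNAi guts, 11.16 in control EBs and 11.01 in Hey RNAi EBs. Most of them were measured well above the dimmest signals: 1 of the 69 was among the dimmest 10% of transcripts in control guts, and 46 were dimmer there than the median transcript. In control EBs 59 were brighter than the median transcript and 8 were among the brightest 10%. All of these levels are log2 intensities, which depend on the probes of a transcript as well as on its RNA. Brightness is therefore not by itself a measure of abundance. In the authors' own group means for guts, the median of the 69 was 8.50 in control and 8.92 in Hey RNAi guts, and that of all transcripts was 8.99 and 9.07. The authors' 2 medians for the 69 thus lay further apart than the 8.77 and 8.88 found here. The limits were not applied to the authors' means.

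On single arrays, all 3 control EBs were above all 3 control guts for 69 of 69 (35% of all transcripts), and all 6 EB arrays were above all 6 gut arrays for 67 (15.1% of all transcripts). A Benjamini-Hochberg adjusted p under 0.05 with a difference of at least 2-fold in limma was reached by 68 of the 69 for control EBs over control guts (15.7% of all transcripts). The choice used these means, so these counts describe it and no more.

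**Figure D2:**
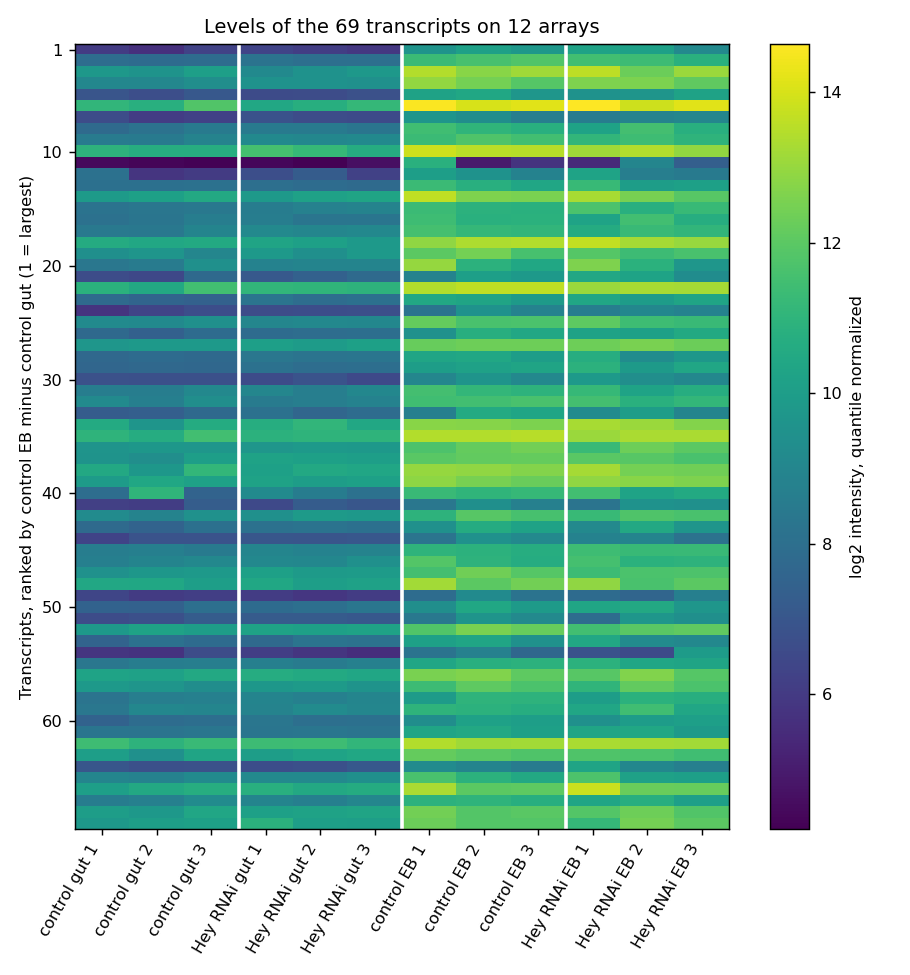
Rows are the 69 transcripts in order of control EB minus control gut (1 = largest), columns are the 12 arrays, and colour is the quantile normalized log2 intensity. The columns change between the gut and EB arrays, and only slightly between control and Hey RNAi within a tissue; row 11 (FBtr0080521) is scattered among the EB arrays and row 40 (FBtr0073613) is high on a single control gut array.

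FBtr0076163 had the largest enrichment of the 69. Its levels were 6.01, 5.64 and 6.28 in control guts, 6.31, 6.08 and 5.90 in Hey RNAi guts, 9.56, 10.14 and 9.73 in control EBs and 10.21, 10.14 and 9.12 in Hey RNAi EBs. The EB arrays lay well above every gut array, and Hey RNAi and control arrays overlapped in both tissues. The enrichment was 3.83 (SE 0.30), and the Hey RNAi differences were 0.12 in guts (95% interval -0.55 to 0.79) and 0.02 in EBs (-0.65 to 0.69).

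FBtr0086670 followed with 3.69. It read 7.94, 7.84 and 7.91 in control guts, 8.20, 8.01 and 8.0 in Hey RNAi guts, 11.33, 11.62 and 11.81 in control EBs and 11.46, 11.36 and 10.82 in Hey RNAi EBs. The Hey RNAi guts were all above the control guts, by 0.17 in the mean, while the EB arrays overlapped with a difference of -0.37.

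FBtr0084982 was enriched by 3.32, with 9.77, 9.58 and 10.08 in control guts, 9.15, 9.54 and 9.76 in Hey RNAi guts, 13.45, 12.78 and 13.15 in control EBs and 13.60, 12.30 and 13.07 in Hey RNAi EBs. Both tissues overlapped. The second Hey RNAi EB array was its lowest EB value.

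FBtr0075863 was enriched by 3.28, with 9.06, 9.05 and 9.36 in control guts, 9.53, 9.52 and 9.44 in Hey RNAi guts, 12.95, 12.48 and 11.88 in control EBs and 12.62, 12.57 and 12.08 in Hey RNAi EBs. Its Hey RNAi guts were all above its control guts (0.34), and its EBs overlapped (-0.01). FBtr0072585 was enriched by 3.21, with 6.94, 6.73 and 7.06 in control guts, 6.59, 6.62 and 6.79 in Hey RNAi guts, 10.24, 10.44 and 9.69 in control EBs and 9.52, 9.67 and 10.21 in Hey RNAi EBs. Here too the arrays of both tissues overlapped, with differences of -0.25 in guts and -0.32 in EBs.

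The remaining 5 of the 10 most enriched transcripts had values between 2.85 and 3.04. FBtr0084956, also the brightest of the 69, read 11.10, 10.78 and 11.81 in control guts, 10.46, 10.74 and 11.16 in Hey RNAi guts, 14.59, 14.02 and 14.18 in control EBs and 14.64, 13.87 and 14.18 in Hey RNAi EBs. Its EB means were 14.26 and 14.23, while its gut difference of -0.44 was near the lower limit, with overlapping arrays. FBtr0074999 (2.93), FBtr0091822 (2.92), FBtr0077503 (2.89) and FBtr0082286 (2.85) shared one direction, with Hey RNAi differences of 0.24 to 0.47 in guts and -0.46 to -0.24 in EBs.

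The 5 transcripts brightest in control EBs held the 3 whose Hey RNAi EB arrays were all below the control EB arrays (17.3% of all transcripts). FBtr0082286 read 13.84, 13.56 and 13.52 in control EBs and 13.15, 13.46 and 12.94 in Hey RNAi EBs, a difference of -0.46. FBtr0086171 read 13.44, 13.64 and 13.63 in control EBs and 13.06, 13.27 and 13.25 in Hey RNAi EBs, and FBtr0086173 read 13.44, 13.45 and 13.50 and then 13.08, 13.30 and 13.31. For these last 2, whose identifiers are 2 numbers apart, the groups were separate and tight, at differences of -0.38 and -0.23, while the gut differences were 0.07 and -0.09. Being within the limit did not therefore mean that the replicate arrays of control and Hey RNAi EBs overlapped.

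FBtr0082760 had the smallest value for the larger of its 2 Hey RNAi differences. It read 11.41, 10.95 and 11.28 in control guts, 11.38, 11.41 and 11.07 in Hey RNAi guts, 13.43, 13.14 and 13.20 in control EBs and 13.33, 13.25 and 13.22 in Hey RNAi EBs. The means differed by 0.08 in guts (95% interval -0.31 to 0.46) and by 0.01 in EBs (-0.38 to 0.39), so both intervals lay inside the 0.5 limit in the fit of all 12 arrays. On the 6 EB arrays alone the EB interval was wider, at -0.50 to 0.52. FBtr0070681 was tighter in guts, where its 6 arrays ran from 8.23 to 8.29, and it read 10.34, 10.51 and 10.14 in control EBs and 10.33, 10.44 and 9.90 in Hey RNAi EBs. FBtr0074020 had differences of 0.13 in guts and -0.08 in EBs, with 11.38, 12.04 and 11.67 in control EBs and 11.02, 12.14 and 11.68 in Hey RNAi EBs.

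**Figure D3:**
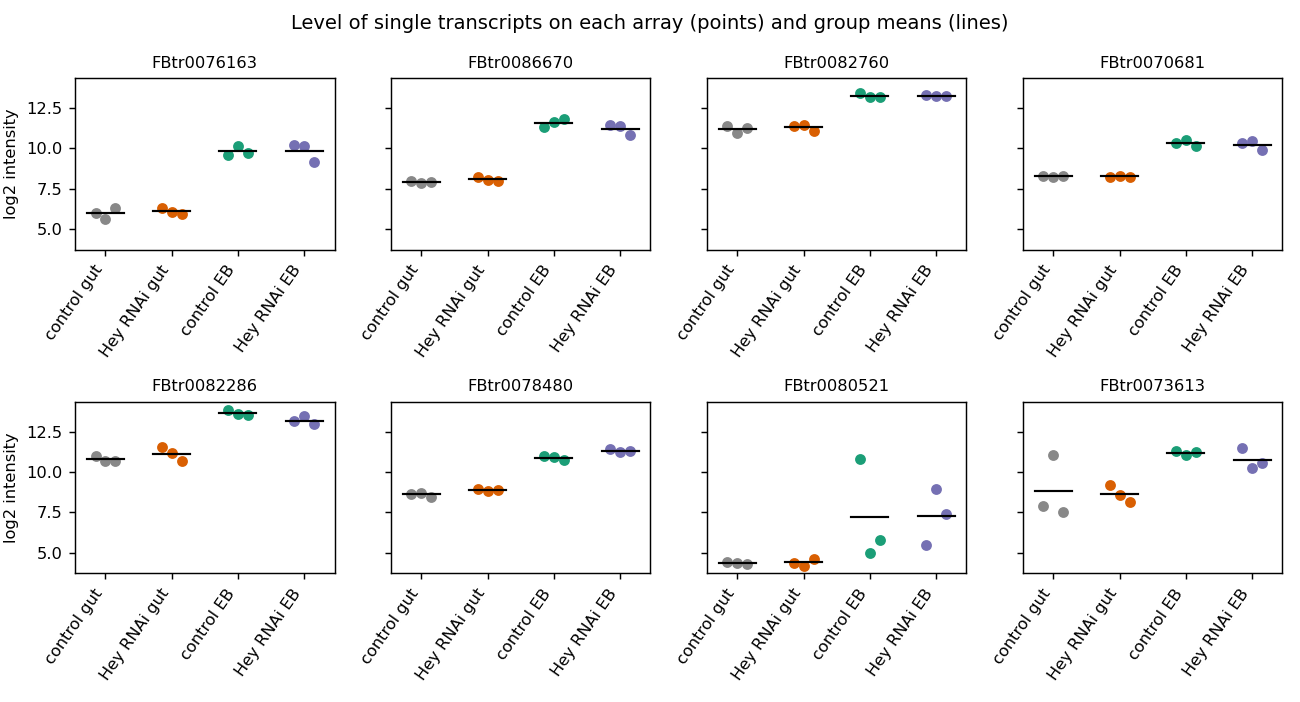
Quantile normalized log2 intensity (y axis) of 8 of the 69 transcripts on each of the 3 arrays of each group (points, in replicate order from left to right), with lines at the group means. FBtr0070681 runs only from 8.23 to 8.29 over the 6 gut arrays, whereas FBtr0080521 spans 4.97 to 10.81 in control EBs and FBtr0073613 has 1 control gut array at 11.02 beside 7.92 and 7.52.

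Small differences of means also came from scattered arrays. FBtr0080521 read 4.45, 4.34 and 4.28 in control guts, 4.37, 4.21 and 4.64 in Hey RNAi guts, 10.81, 4.97 and 5.78 in control EBs and 5.46, 8.97 and 7.38 in Hey RNAi EBs. Its SD in control EBs was 3.17, 1 array carried the EB mean, and only 0.866% of transcripts were dimmer in control guts. The difference of 0.08 in EBs had a 95% interval of -2.78 to 2.94, and this was the one transcript of the 69 that did not reach the adjusted p for enrichment.

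FBtr0073613 was set apart by the second control gut array, at 11.02 beside 7.92 and 7.52, with 9.21, 8.59 and 8.12 in Hey RNAi guts, 11.27, 11.05 and 11.21 in control EBs and 11.49, 10.26 and 10.54 in Hey RNAi EBs. FBtr0085683 was low on the first and second Hey RNAi EB arrays, at 6.84 and 6.54, and high on the third, at 9.95, against 8.19, 8.79 and 7.71 in control EBs. These were the 2 transcripts in which an EB array fell below the highest gut array. They were chosen for mention after their values were seen, as were FBtr0078480 and the transcripts given below by their stability under other processing.

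In guts, the Hey RNAi arrays were all above the control arrays for 15 of the 69 (22.7% of all transcripts) and all below for 3 (19.9% of all transcripts), and they overlapped for 51. The 15 had mean differences of 0.17 to 0.49. FBtr0074998 was among them, with 8.44, 8.37 and 8.90 in control guts and 9.10, 9.01 and 9.07 in Hey RNAi guts. The 3 that were lower throughout were FBtr0088685 (-0.17), FBtr0080509 (-0.23) and FBtr0089865 (-0.46). FBtr0089865 read 10.64, 10.45 and 10.56 in control guts and 10.30, 10.13 and 9.84 in Hey RNAi guts. An adjusted p under 0.05 in limma was reached in guts by 0 of the 69 (4.12% of all transcripts), by 2 of them when the 6 gut arrays were fitted alone (19.9% of all transcripts) and by 9 with array weights (24.6% of all). At an unadjusted p under 0.05 in limma there were 3 of the 69 in guts, against 16.9% of all transcripts.

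In EBs, the Hey RNAi arrays were all above the control arrays for 1 of the 69 (17.4% of all transcripts) and overlapped for 65. That transcript, FBtr0078480, read 10.98, 10.92 and 10.72 in control EBs and 11.41, 11.26 and 11.29 in Hey RNAi EBs, a difference of 0.44 with a 95% interval of 0.12 to 0.77. It was also the 1 transcript of the 69 with an adjusted p under 0.05 in limma (27.4% of all transcripts), and it no longer reached that limit when the 6 EB arrays were fitted alone, where its interval was -0.07 to 0.95. With single arrays left out, between 0 and 4 of the 69 reached it, against 21.1% to 28.6% of all transcripts, and the 4 came without the first Hey RNAi EB array. The difference between the 2 Hey RNAi effects reached the limit in limma for 0 of the 69 (12.8% of all transcripts), and 4 had an unadjusted p under 0.05, against 29.4% of all. The limits on both differences set these counts.

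The intervals were wide against the limits. In the fit of all 12 arrays, the 95% interval of a Hey RNAi difference extended 0.61 to either side in the median of the 69 (0.32 to 2.86), and 0.64 in the median of all transcripts. It lay inside 2-fold in guts for 46 of the 69, against 51.6% of all transcripts, and in EBs for 48, against 34.6% of all. Fitted alone, the 6 gut arrays gave a median of 0.40 and 63 transcripts inside 2-fold (73.8% of all transcripts), and the 6 EB arrays gave 0.79 and 31 (22.8% of all). Each interval is centred on a difference that the limits hold under 0.5, so the counts inside 2-fold depend on the choice. The widths were not used by the choice. Limits on means can still favour transcripts whose arrays spread little, so the widths are not independent of it either. The number of arrays limits this precision. In the median transcript the SD of the EB arrays was 2.18 times that of the gut arrays. For the other 38 of the 69, the EB arrays alone did not bound the change to less than 2-fold.

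**Figure D4:**
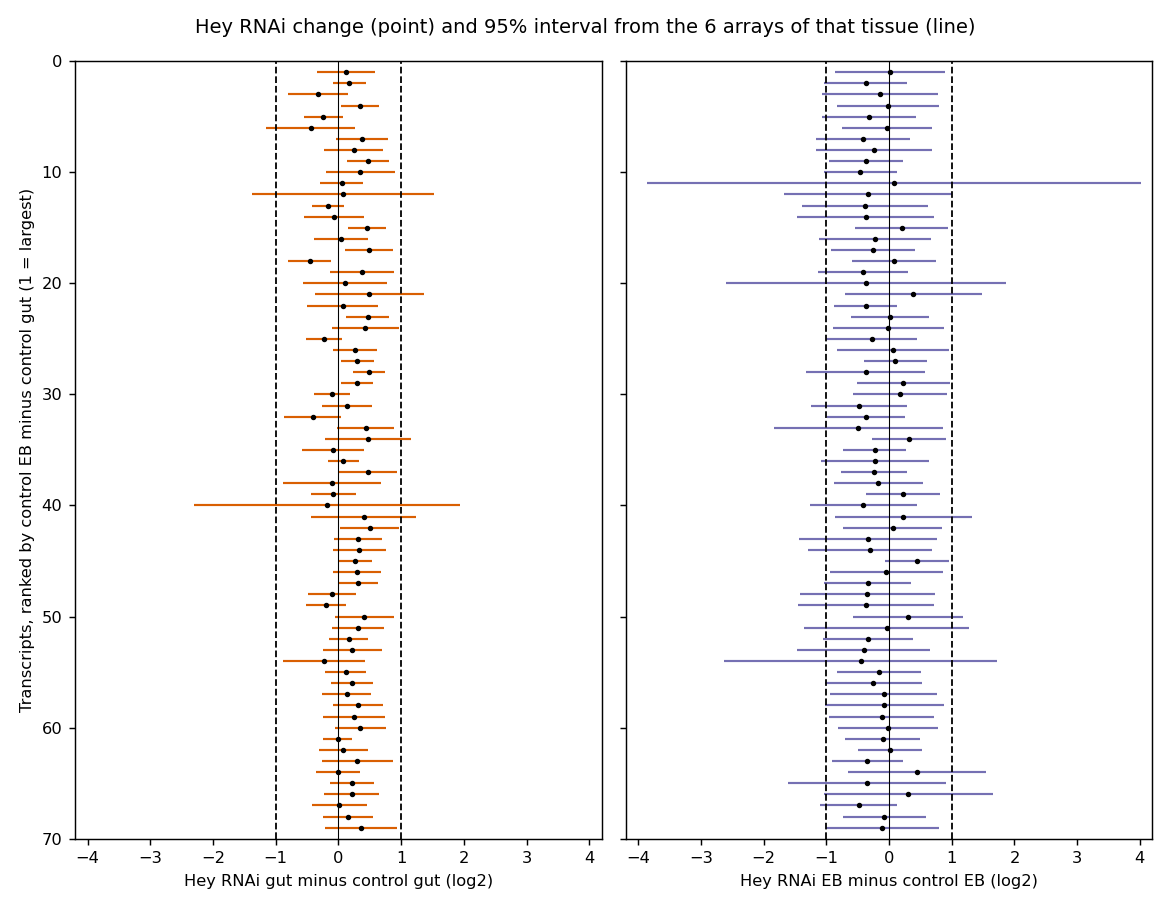
Hey RNAi minus control (log2, x axis) in guts (left) and EBs (right) for the 69 transcripts, ranked by control EB minus control gut (y axis), with points at the difference and lines for the 95% interval from the 6 arrays of that tissue alone. Dashed lines mark 2-fold; 63 gut intervals and 31 EB intervals lie inside them.

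Replicate arrays of the 69 spread more than those of all transcripts in control guts and about as much in the other groups. Their median SD was 0.26 in control guts, 0.15 in Hey RNAi guts, 0.33 in control EBs and 0.43 in Hey RNAi EBs, against 0.19, 0.16, 0.35 and 0.41 over all transcripts. Over the 539 EB-enriched transcripts it was 0.30, 0.16, 0.40 and 0.44, so the 69 did not spread more than EB-enriched transcripts at large in any group. Single arrays stood out in the direction of many of the 69 at once. On the third control gut array 53 of the 69 were above their group mean, with a median deviation of 0.19, while 25 and 24 were above it on the other 2. On the third EB arrays 23 (control) and 24 (Hey RNAi) were above it, with median deviations of -0.12 and -0.13. Over all transcripts the median deviation of an array lay between -0.04 and 0.05. The part of these arrays in the differences was not tested beyond leaving each out, which kept between 49 and 63 of the 69 within the limits.

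The choice was then repeated on 2 replicate numbers of each group, and the values were read in the number held out, 1 array a group. With replicates 1, 2 and 3 held out, 79, 66 and 81 transcripts were chosen, of which 40, 35 and 44 were among the 69. EB enrichment carried over: held-out medians were 2.22, 2.66 and 2.03, and 75 of 79, 66 of 66 and 75 of 81 were at least 2-fold higher in the held-out EB than in the held-out gut. A held-out difference of 2 or more was met by 63.3%, 77.3% and 50.6%, against 4.28%, 6.99% and 2.55% of all transcripts.

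In held-out arrays, small Hey RNAi differences were more frequent than among all transcripts in EBs but about as frequent in guts. In held-out guts 64.6%, 63.6% and 79% of the chosen transcripts were within 0.5, close to the 65.6%, 65.8% and 70.5% of all transcripts and above the 41.1%, 45.3% and 54.8% of transcripts chosen for EB enrichment alone. In held-out EBs 50.6%, 56.1% and 61.7% were within 0.5, against 42.4%, 41.7% and 44.5% of all and 29.4%, 34.9% and 32.5% of those chosen for EB enrichment alone. The held-out EB differences ran from -1.84 to 2.00, -1.44 to 0.91 and -2.11 to 0.64. All 3 limits were met in the held-out arrays by 15 of 79 (19%), 17 of 66 (25.8%) and 19 of 81 (23.5%), where 0.595%, 0.724% and 0.465% of all transcripts met them. Few of all transcripts met the enrichment limit by itself (4.28%, 6.99% and 2.55%), so this gap is no measure of stability without Hey. The share was not computed for transcripts chosen for EB enrichment alone. Held-out values rest on single arrays, so no test was made, and the normalization had used all arrays.

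Just inside the limits, FBtr0085927 had an enrichment of 2.02, FBtr0079028 and FBtr0089865 had gut differences of 0.50 (just under the limit) and -0.46, and FBtr0074399 and FBtr0080356 had EB differences of 0.45 and -0.49. Just outside, FBtr0079001 had an enrichment of 2.00 (just under the limit), FBtr0084899 and FBtr0077941 had gut differences of 0.52 and -0.97, and FBtr0083478 and FBtr0072393 had EB differences of 0.50 and -0.51. The set shaded into its neighbours everywhere except at the lower gut limit. Beyond it lay 1 EB-enriched transcript that was within the limit in EBs, while 33 were lower in both tissues.

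Membership depended on the normalization and on single arrays. Of the 69, 15 met all limits under each of 12 omissions of 1 array, 12 met them under each of 4 other normalizations, and 7 met them in all 16. The 7 were FBtr0076163, FBtr0075863, FBtr0075050, FBtr0077594, FBtr0079763, FBtr0079999 and FBtr0077843, and their EB differences lay between -0.01 and 0.23. FBtr0077594 was the tightest of them, with 9.68, 9.79 and 9.82 in control guts, 10.11, 9.94 and 10.13 in Hey RNAi guts, 12.21, 12.33 and 12.36 in control EBs and 12.34, 12.56 and 12.31 in Hey RNAi EBs. Its EBs overlapped at a difference of 0.10, and its Hey RNAi guts were all above its control guts by 0.30 in the mean. FBtr0077843 read 9.95, 10.44 and 10.19 in control guts, 10.21, 10.00 and 10.13 in Hey RNAi guts, 12.85, 12.52 and 12.28 in control EBs and 12.90, 12.78 and 12.64 in Hey RNAi EBs, and overlapped in both tissues. When arrays were scaled by their medians alone, the median of all transcripts moved by -0.31 for the EB difference and by 0.43 for the enrichment, and 33 of the 69 then passed the limit in EBs. The 7 had to stay within the limit under that scaling too, so the range of their EB differences partly reflects the choice.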

How the data were processed

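Each transcript had 1 deposited intensity per array, on a linear scale from 7.78 to 55809. The authors scanned NimbleGen arrays (4 probes of 60 nucleotides per target), extracted data in NimbleScan and normalized them in ArrayStar, and the submitters' processing notes name RMA. Whether the matrix precedes that normalization is not given in the sources used here. Mean deposited intensities nearly coincided inside 5 sets of arrays, and what these sets stand for is not given either. Control and Hey RNAi arrays of the same tissue and number shared a set, except the third EB arrays. Their means were 3214 (control) and 2336 (Hey RNAi). Array medians ran from 490.5 to 877.6, so quantile normalization was applied to the log2 values of the 12 arrays together, which gives guts and EBs one distribution. The authors' deposited workbooks hold gut means on a log2 scale, and folds, directions, p-values and t scores that were not used. Limma 3.58.1 in R 4.3.3 (lmFit, eBayes) fitted 4 group means (8 residual, 2.6 prior degrees of freedom), with Benjamini-Hochberg adjustment over 15473 transcripts and no filter. Code was tested on simulated data. Replicates are described as independent crosses.

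The members, lists and limits were chosen with earlier results of these data known. Named transcripts were the 10 most enriched, the 5 brightest in control EBs, the 5 with the smallest larger Hey RNAi difference, and those next to each limit. Deviations of same-numbered arrays correlated over transcripts with r of 0.18, 0.32 and 0.13 in EBs and 0.17, 0.0048 and 0.26 in guts. Alternatives were other normalizations, filters, limits, variance models, blocks and omitted arrays.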

Additional observations from a re-analysis of the deposited data

How the results depend on the processing

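Settings moved the size of the set. It held 121 transcripts with arrays only centred on their medians (35 of the 69), 38 with cyclic loess (34), 73 with no further normalization (52) and 80 with quantile normalization within each tissue (57). Limits of 1.5 or 2.5 for enrichment gave 234 or 27. Limits of 0.4 or 0.6 for the Hey RNAi differences gave 43 or 103. Group medians gave 80 transcripts and kept 42 of the 69. Leaving out single arrays gave 65 to 81 transcripts, and 49 to 63 of the 69.

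The interval of the EB difference lay inside 2-fold for 21 of the 69 with no further normalization, 19 with centring and 31 with the 6 EB arrays alone (48 in the report), and that of the gut difference for 24 with no further normalization (46 in the report) and 29 to 54 when single arrays were left out. Over all transcripts, an adjusted p under 0.05 in limma was reached in guts by 158 with no further normalization, 284 with centring, 3081 with the 6 gut arrays alone, 3802 with array weights and 243 to 985 when single arrays were left out (637 in the report), and in EBs by 1833 with no further normalization and 1273 with the 6 EB arrays alone (4237 in the report). Enrichment was called for 4061 with centring and 1595 with cyclic loess (2434 in the report).

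With the replicate number as a block, 553 transcripts passed in guts, 4284 in EBs and 2489 for enrichment, and FBtr0078480 lost its call. With the 5 sets of like mean intensity as a block, 863 passed in guts, 5062 in EBs and 2179 for enrichment. A replicate block with no further normalization, added after seeing the data, gave 310 in guts and 2569 in EBs, with 28 EB and 25 gut intervals inside 2-fold. With no further normalization the median SD of the 69 was 0.49 in control guts and 0.38 in Hey RNAi guts, and 7.02% and 13.25% met all limits in held-out replicates 1 and 3. Centring gave 140 and 138 transcripts in those choices, 951 EB-enriched transcripts and 397 of those lower in Hey RNAi EBs and within the limit in guts. The causes were not tested. Of 1869 recomputed differences of named transcripts, 53 moved by more than 1 SD. Sign changed in 0 of 623 enrichments and in 72 of 1246 Hey RNAi differences. The latter were all under 0.5 in size in the report, where the limits hold most named differences, so larger differences were hardly examined.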
